A study of Mus musculus with 21 samples.

Results

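The 10 immediate early genes described here are Fos, Fosb, Jun, Junb, Jund, Egr1, Atf3, Ier2, Ier3 and Klf6. They were chosen by symbol from the 33861 genes of the deposited count table, and each symbol matched 1 row. The table covers 21 mouse RNA samples, of which 12 are cultured pluripotent cells and 9 are single epiblasts, the embryonic cell layer that gives rise to the body. FS1 and FS2 are 2 lines of formative stem cells (FS cells) kept in A3XR medium, with passages 10, 11 and 18 of FS1 and passages 12, 13 and 16 of FS2. AF and AFX are epiblast stem cells (EpiSCs) kept in the media of those names, both with E14 in the sample names, at passages 14, 15 and 16 each. The epiblasts came from 3 embryos each at E5.0 (numbered 1, 2 and 4), E5.5 and E6.0, where E gives the embryonic day, and the E6.0 samples carry E6.5 in another label field. Each cultured sample held 1000 cells, and RNA of all samples was prepared with the PicoPure kit. No treatment or stimulus is named for any group. Cultured replicates are passages of a line and not separate derivations, FS and EpiSC groups differ in both line and medium, and p-values therefore measure the spread between these samples only.

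Immediate early genes are transcribed within minutes of a signal such as a growth factor, serum or stress, without new protein synthesis, through factors that already sit in the cell (SRF with its ELK partners, and CREB). Their RNAs are short-lived, and several encode transcription factors that switch on a later set of genes. FOS and JUN family proteins pair through leucine zippers to form AP-1. In pluripotent cells the FGF and ERK pathway is a known source of such signals, and dissociation or handling of a tissue can also induce these genes.

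Total counts ran between 5827093 and 15916800 per library, and 3 counts, the floor used here, equalled 0.171 to 0.590 CPM (counts relative to the library total, scaled by TMM). All 10 genes passed the filter on low counts in the main fits. With a minimum mean of 5 CPM, Ier3 dropped out of every comparison and Fosb out of those among cultured groups. Ier3 also dropped out of E6.0 against either earlier stage when only those groups were fitted, with or without a replicate block. Loci that resemble ribosomal RNA took 15.4 to 24.1% of counts, and mitochondrial genes took 4.26 to 5.78% in cultured samples and 6.31 to 8.95% in epiblasts. The 8 markers of epiblast and pluripotent cells were all detected in every group, with summed levels of 1232 to 2895 CPM in cultured samples and 3907 to 7182 CPM in epiblasts. The 12 visceral endoderm markers summed to 319.6 to 919.5 CPM at E5.0, 47.24 to 85.51 CPM at E5.5 and 27.64 to 34.97 CPM at E6.0, and to 64.59 to 97.01 CPM in AF, 15.25 to 26.97 CPM in AFX and 7.95 to 14.66 CPM in FS cells. The 8 extraembryonic ectoderm markers summed to 51.04 to 119.1 CPM at E5.0, 22.03 to 50.32 CPM at E5.5 and 74.5 to 198.1 CPM at E6.0, and to 81.46 to 169.6 CPM in AF, 43.48 to 91.16 CPM in AFX and 33.94 to 56.66 CPM in FS cells. The 10 fibroblast markers summed to 236.4 to 309.7 CPM in AF, 41.18 to 67.33 CPM in AFX, 16.8 to 46.42 CPM in FS cells and 11.57 to 25.24 CPM in epiblasts. In such bulk samples, fewer cells of a type and less RNA per cell cannot be told apart.

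The promoters of 4 members are shown because they hold letters close to the cyclic AMP response element, the site through which CREB and ATF factors act, and because Klf6, Jun and Atf3 had similar stage profiles below. Each window of 300 bases spans a RefSeq gene start, with most of it upstream (GRCm38.p6, read 5′ to 3′ on the gene's strand). Capitals mark TGACGT (or ACGTCA, the same motif on the other strand), TGACNTCA and TATAAA. The windows are chr12:85473640-85473939 (plus strand) for Fos, chr4:95052173-95052472 (minus strand) for Jun, chr1:191183284-191183583 (minus strand) for Atf3 and chr13:5861239-5861538 (plus strand) for Klf6. The Atf3 window belongs to a start inside the longer annotated gene.
Fos: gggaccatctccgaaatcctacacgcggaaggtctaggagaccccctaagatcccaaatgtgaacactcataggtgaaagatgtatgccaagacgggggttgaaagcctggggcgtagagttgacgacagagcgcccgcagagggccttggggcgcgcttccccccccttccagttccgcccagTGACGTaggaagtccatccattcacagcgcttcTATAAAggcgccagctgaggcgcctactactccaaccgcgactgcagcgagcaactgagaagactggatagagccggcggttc
Jun: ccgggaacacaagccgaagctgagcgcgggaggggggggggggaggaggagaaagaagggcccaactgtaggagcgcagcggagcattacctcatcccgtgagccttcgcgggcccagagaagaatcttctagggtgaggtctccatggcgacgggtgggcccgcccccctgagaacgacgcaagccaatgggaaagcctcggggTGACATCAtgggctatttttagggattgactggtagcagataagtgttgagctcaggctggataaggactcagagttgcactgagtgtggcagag
Atf3: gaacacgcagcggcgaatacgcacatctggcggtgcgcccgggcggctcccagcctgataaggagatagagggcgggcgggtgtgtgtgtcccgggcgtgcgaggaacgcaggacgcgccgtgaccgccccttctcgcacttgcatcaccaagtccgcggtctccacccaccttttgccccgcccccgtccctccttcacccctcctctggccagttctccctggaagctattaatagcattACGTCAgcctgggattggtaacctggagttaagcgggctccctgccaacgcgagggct
Klf6: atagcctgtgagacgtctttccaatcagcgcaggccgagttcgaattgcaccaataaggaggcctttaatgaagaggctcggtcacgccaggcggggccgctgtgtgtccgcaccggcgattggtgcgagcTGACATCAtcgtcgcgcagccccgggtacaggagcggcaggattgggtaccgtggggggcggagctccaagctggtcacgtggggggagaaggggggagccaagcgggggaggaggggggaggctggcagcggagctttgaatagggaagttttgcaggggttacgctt

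Of the 10 members, 8 had a promoter in the RefSeq table. On either strand, TGACNTCA was present in Jun and Klf6, as TGACATCA in both, and in 8.62% of all 32544 promoters. TGACGT was present in Fos and Atf3 and in 7.55% of all promoters. The full palindrome TGACGTCA, which holds TGACGT and is also a match of TGACNTCA, was in 0 of 8 members and 1.8% of promoters. TATAAA was in Fos and Junb and in 13.6% of promoters. The AP-1 heptamer TGANTCA (7.79% of promoters) and the CArG box bound by SRF (1.64%) were in none of the 8 windows. The Jund window (chr8:70697489-70697788) ends upstream of the annotated gene, which begins at chr8:70698949, and does not cover that start. A match describes letters in these windows only.

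Per kilobase of exon, Jund and Ier2 were the most abundant members. In FS cells the mean level was 28.9 CPM per kb for Jund and 15.1 CPM per kb for Ier2, and in epiblasts it was 48.0 CPM per kb for Jund and 47.6 CPM per kb for Ier2. Fosb was the least abundant in cultured samples, at 0.25 CPM per kb. At E5.0 Fosb was also the lowest, at 0.25 CPM per kb, while at E5.5 it was Atf3, at 0.66 CPM per kb, and at E6.0 Ier3, at 0.10 CPM per kb. Jun, a widely expressed AP-1 subunit, stood at 12.1 CPM per kb in cultured samples and 10.1 CPM per kb in epiblasts. Fos, its classical partner, stood at 1.15 and 3.21 CPM per kb.

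**Figure D1:**
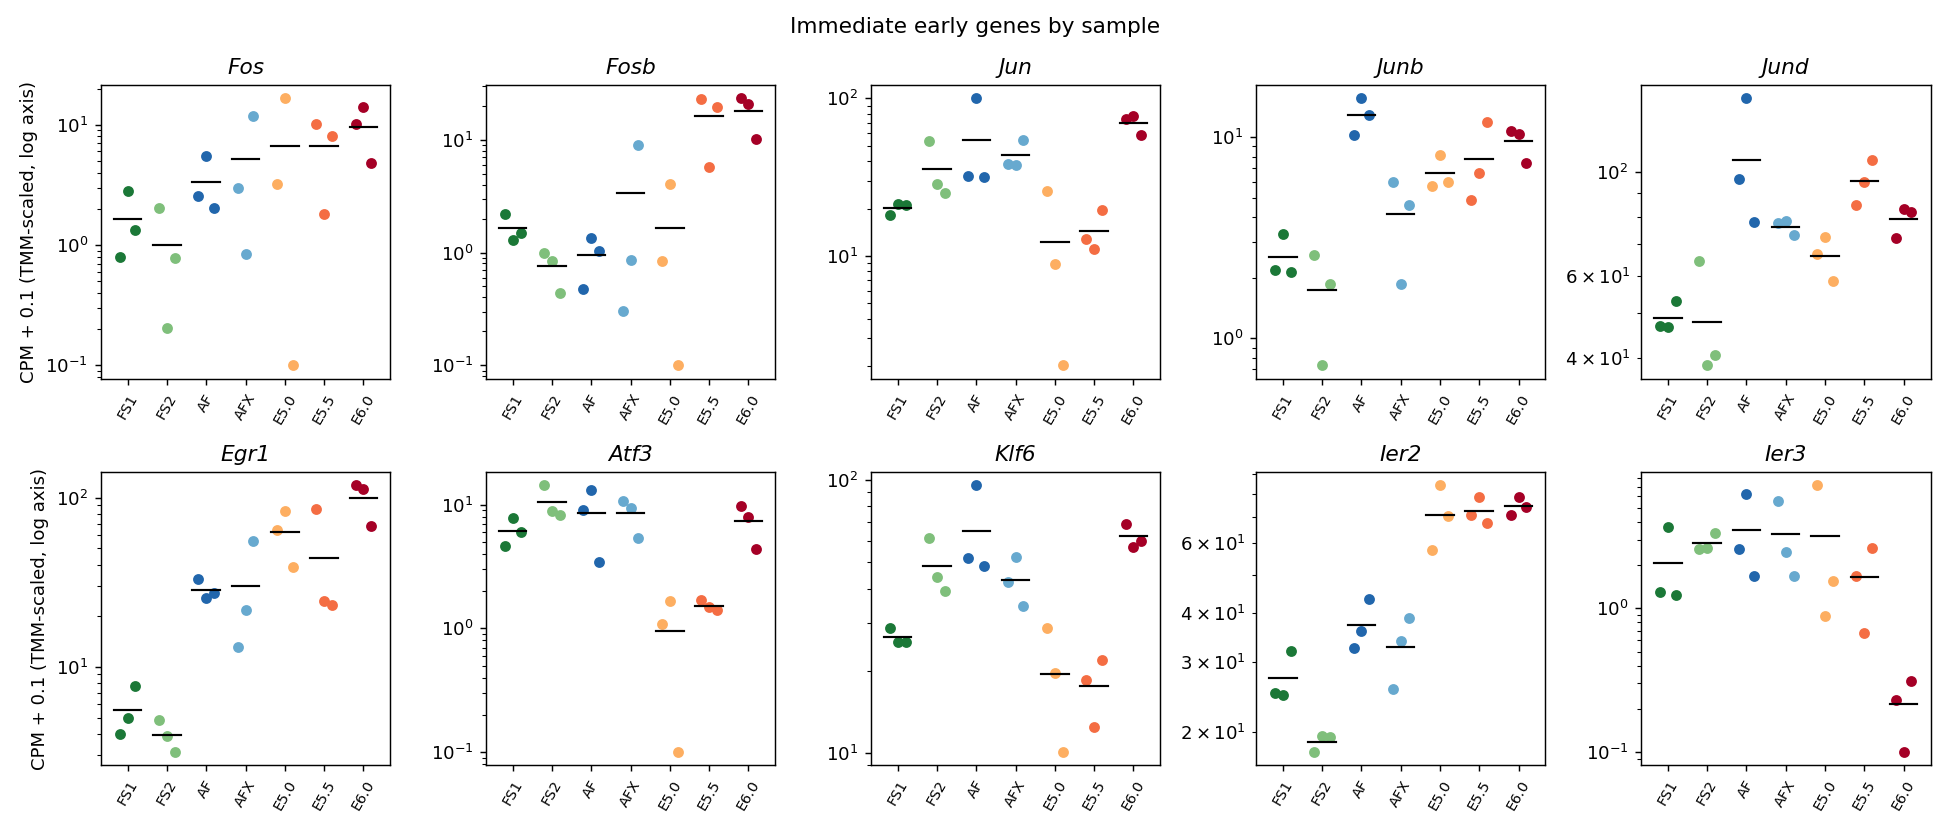
Level of each gene in each sample on a log axis (TMM-scaled CPM plus 0.1), with points for the 3 samples of a group and a black line for their mean CPM. Ier2 separates the 12 cultured samples (at most 43.3 CPM) from the 9 epiblasts (at least 57.6 CPM), and Klf6 and Jun are high at E6.0.

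Fos (ENSMUSG00000021250, chr12:85473890-85477273, plus strand, GRCm38) encodes the AP-1 subunit that gives the family its name. Its level was 0.70, 2.72 and 1.22 CPM in FS1 and 1.93, 0.11 and 0.68 CPM in FS2. In AF it was 2.47, 5.37 and 1.95 CPM, and in AFX 2.89, 0.75 and 11.7 CPM. Embryos had 3.11, 16.5 and 0 CPM at E5.0, 10.1, 1.72 and 7.94 CPM at E5.5, and 10.1, 13.9 and 4.69 CPM at E6.0. From the lowest group mean to the highest the order was FS2, FS1, the EpiSC groups AF and AFX, and then the stages by age, but the ranges of every pair of neighbours in that order overlapped. E5.0 embryo 4 had no Fos count, and E5.0 embryo 2 had the highest level of all samples. No comparison passed the test for Fos. The closest was cultured against epiblast, with a log2 fold change of -1.42 ± 0.62 (SE) and an adjusted p of 0.0558 by edgeR's quasi-likelihood test with Benjamini-Hochberg adjustment. Leaving out FS1 passage 11, AFX passage 16, E5.0 embryo 4 or E5.5 embryo 2 brought that p under 0.05. In FS against AFX, leaving out AFX passage 15 did so.

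Fosb (ENSMUSG00000003545, chr7:19302696-19310051, minus strand) encodes a close relative of FOS that also pairs with JUN proteins. It was at 2.09, 1.18 and 1.39 CPM in FS1, 0.89, 0.74 and 0.34 CPM in FS2, 0.37, 1.23 and 0.93 CPM in AF, and 0.20, 0.75 and 8.82 CPM in AFX. AFX passage 16 stood alone among cultured samples, as it also did for Fos. In embryos Fosb was at 0.75, 3.93 and 0 CPM at E5.0, 23.0, 5.62 and 19.4 CPM at E5.5, and 23.1, 20.8 and 10.02 CPM at E6.0. All 6 later embryos lay above all 3 E5.0 embryos. Fosb rose from E5.0 to E6.0 by 3.69 ± 1.04 on the log2 scale (adjusted p = 0.0389, edgeR). That call was lost without E5.0 embryo 1 or any single E6.0 embryo, and without the filter on low counts, with an adjusted p of up to 0.111, and the log2 fold change was 3.05 without E5.0 embryo 4 and 5.56 without E5.0 embryo 2. The E5.5 difference from E5.0 was 3.53 ± 1.04 (adjusted p = 0.0888, edgeR) and became a call by DESeq2 and, with a log2 fold change of 5.39, without E5.0 embryo 2. Cultured samples were lower than epiblasts by a log2 fold change of -2.33 ± 0.61 (adjusted p = 0.00312, edgeR), a call lost without E5.0 embryo 2 (-1.73, adjusted p = 0.0597), and the difference was -3.30 without AFX passage 16.

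Jun (ENSMUSG00000052684, chr4:95049034-95052222, minus strand) encodes the JUN subunit that can also pair with itself. It was at 17.99, 21.4 and 21.1 CPM in FS1 and 53.9, 28.4 and 25.0 CPM in FS2. AF had 32.1, 100.1 and 31.6 CPM, and AFX had 38.2, 37.8 and 54.5 CPM. Embryos had 25.6, 8.84 and 1.92 CPM at E5.0, 12.7, 10.9 and 19.5 CPM at E5.5, and 73.7, 77.5 and 58.8 CPM at E6.0. All E6.0 embryos stood above all earlier embryos, and their mean of 70.01 ± 9.86 CPM (SD, n = 3) was the highest of the 7 groups. The E6.0 difference was 2.503 ± 0.74 against E5.0 (adjusted p = 0.0512, edgeR) and 2.28 ± 0.72 against E5.5 (adjusted p = 0.147), neither past the threshold. The second was called by DESeq2 and when only those groups were fitted (lowest adjusted p = 4.05e-05). Without E5.0 embryo 1 or embryo 4 the first of these was called, with log2 fold changes of 3.80 and 1.99, and it was also called by DESeq2, with a minimum mean of 5 CPM and without ribosomal RNA loci. The adjusted p against E5.0 ran from 0.00175 to 0.137 over all alternatives. FS cells differed from AF by -0.98 ± 0.41 (adjusted p = 0.121), and the difference was -1.28 and called without FS2 passage 12, called with FS1 alone as FS, and -0.19 without AF passage 15. FS2 differed from FS1 by 0.80 (adjusted p = 0.398), called only without the filter among the alternatives run. Cultured samples differed from epiblasts by 0.81 ± 0.35 (adjusted p = 0.0524), called in 5 of the 21 fits that left out 1 sample and in 4 of 7 other alternatives.

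Junb (ENSMUSG00000052837, chr8:84974484-84978718, minus strand) encodes a relative of JUN that can restrain JUN activity. Its levels were 2.09, 3.19 and 2.04 CPM in FS1, 2.49, 0.63 and 1.77 CPM in FS2, 10.1, 15.5 and 12.7 CPM in AF, and 5.91, 1.75 and 4.50 CPM in AFX. AF stood above all other cultured samples. Junb was lower in FS cells than in AF by a log2 fold change of -2.66 ± 0.38 (adjusted p = 0.000214, edgeR). It was also lower in AFX than in AF, by -1.63 ± 0.45 (adjusted p = 0.0338), a call that was lost when AF passage 14, 15 or 16 or AFX passage 15 or 16 was left out, with an adjusted p of up to 0.127. Both comparisons use the same AF samples, which had the highest fibroblast markers of all groups and the highest visceral endoderm markers of the cultured groups, with extraembryonic ectoderm markers also above those of every FS sample. The part of such cells in the differences between AF and other cultured groups was not tested for any gene here. Embryos had 5.60, 8.06 and 5.88 CPM at E5.0, 4.75, 6.54 and 11.9 CPM at E5.5, and 10.6, 10.3 and 7.35 CPM at E6.0, with overlapping stages. Cultured samples were lower than epiblasts by -0.71 ± 0.24 (adjusted p = 0.0127), although AF had the highest mean of the 7 groups, at 12.8 CPM.

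Jund (ENSMUSG00000071076, chr8:70698949-70700616, plus strand) encodes the JUN relative that is typically expressed at a steady level. FS1 had 46.8, 46.5 and 53.0 CPM, FS2 64.4, 38.5 and 40.5 CPM, AF 96.5, 143.2 and 78.1 CPM, and AFX 77.5, 78.2 and 73.0 CPM. All 6 FS samples lay below all 6 EpiSC samples. FS cells were lower than AF by -1.14 ± 0.17 (adjusted p = 0.000386, edgeR) and lower than AFX by -0.67 ± 0.18 (adjusted p = 0.0286). The AFX call was lost in 6 of the 9 fits that left out 1 sample (FS1 passage 11, FS2 passage 13 or 16, or AFX passage 14, 15 or 16) and with either FS line alone, with an adjusted p of up to 0.106. Embryos had 66.5, 72.5 and 58.5 CPM at E5.0, 84.8, 94.8 and 106.0 CPM at E5.5, and 72.0, 83.1 and 81.9 CPM at E6.0. The E5.5 embryos were above both other stages in every sample. The rise from E5.0 to E5.5 was 0.52 ± 0.13 (adjusted p = 0.0318), lost without E5.0 embryo 1 or 4 or E5.5 embryo 2 or 3 and when only those groups were fitted. Summed visceral endoderm markers were highest at E5.0, and summed extraembryonic ectoderm markers had their lowest range at E5.5 and their highest at E6.0. Of the latter list, Elf5, Hand1 and Cdx2 were instead higher at E5.0 (2.83, 2.42 and 0.46 CPM) than at E6.0 (0.34, 0.44 and 0.31 CPM). The part of either list in the stage differences of all members was not tested.

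Egr1 (ENSMUSG00000038418, chr18:34859823-34864984, plus strand) encodes a zinc finger factor that responds to ERK signalling. It was at 3.88, 4.85 and 7.58 CPM in FS1 and 4.75, 3.80 and 3.02 CPM in FS2. AF had 32.7, 25.5 and 27.0 CPM, and AFX had 13.04, 21.4 and 55.4 CPM. No FS sample reached the lowest EpiSC sample. FS cells were lower than AF by -2.62 ± 0.37 (adjusted p = 0.000371, edgeR) and lower than AFX by -2.70 ± 0.37 (adjusted p = 0.000626), 2 comparisons that share the FS samples. Without AFX passage 16 the second was -1.89, still past the threshold. In embryos Egr1 was at 64.3, 83.5 and 38.5 CPM at E5.0, 85.1, 24.2 and 23.0 CPM at E5.5, and 118.6, 112.0 and 67.7 CPM at E6.0. E5.5 embryo 1 stood apart from its stage, and no stage comparison passed the test. Without that embryo the E6.0 difference from E5.5 was 2.08, with an adjusted p of 0.0131. Cultured samples were lower than epiblasts by -2.03 ± 0.30 (adjusted p = 1.8e-05).

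Atf3 (ENSMUSG00000026628, chr1:191170296-191218039, minus strand) encodes a stress-induced factor of the ATF and CREB family. FS1 had 4.57, 7.69 and 5.95 CPM, FS2 14.3, 8.77 and 8.09 CPM, AF 9.02, 12.9 and 3.35 CPM, and AFX 10.7, 9.26 and 5.33 CPM. The cultured groups overlapped, except that every FS2 sample lay above every FS1 sample. Embryos had 0.99, 1.57 and 0 CPM at E5.0, 1.58, 1.38 and 1.31 CPM at E5.5, and 9.73, 7.88 and 4.26 CPM at E6.0. Each E6.0 embryo was above all 6 earlier ones. Atf3 rose from E5.0 to E6.0 by 3.14 ± 0.79 (adjusted p = 0.0121, edgeR), a call lost without E6.0 embryo 1 (adjusted p = 0.0602). The value was 2.52 without E5.0 embryo 4 and 3.85 without E5.0 embryo 2. The difference from E5.5 was 2.34 ± 0.73 (adjusted p = 0.0933), and it was called by DESeq2, without the filter and when only those groups were fitted (lowest adjusted p = 0.00447). Cultured samples were higher than epiblasts by 2.05 ± 0.34 (adjusted p = 1.8e-05), with the E6.0 embryos inside the cultured range.

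Klf6 (ENSMUSG00000000078, chr13:5861482-5870394, plus strand) encodes a zinc finger factor of the Krüppel-like family. It was at 28.6, 25.3 and 25.4 CPM in FS1, 61.2, 44.1 and 39.0 CPM in FS2, 51.6, 95.7 and 48.2 CPM in AF, and 42.1, 52.2 and 34.5 CPM in AFX. FS1 was below the other cultured groups in every sample. In embryos it was at 28.5, 19.5 and 9.97 CPM at E5.0, 18.4, 12.4 and 21.8 CPM at E5.5, and 69.1, 56.9 and 59.9 CPM at E6.0. The E6.0 embryos did not overlap with either earlier stage. Summed extraembryonic ectoderm markers were at 74.5 to 198.1 CPM in these embryos against 22.03 to 50.32 CPM at E5.5. Elf5, Hand1 and Cdx2 of that list were at only 0.34, 0.44 and 0.31 CPM at E6.0. Klf6 rose by 1.81 ± 0.32 from E5.5 to E6.0 (adjusted p = 0.0065, edgeR) and by 1.67 ± 0.32 from E5.0 to E6.0 (adjusted p = 0.00258), and both calls held in every fit that left out 1 embryo. The difference of FS2 from FS1 was 0.84 ± 0.25 (adjusted p = 0.0902), called by DESeq2, without the filter and when only those groups were fitted. FS cells differed from AF by -0.82 ± 0.29 (adjusted p = 0.0655), and this was called by DESeq2, with the FS lines as separate groups, with FS1 alone and without FS2 passage 12 (-1.02), with an adjusted p of 0.00526 to 0.371 over all alternatives. Cultured samples were higher than epiblasts by 0.77 ± 0.21 (adjusted p = 0.0033), although the E6.0 mean of 62.0 CPM was above the cultured mean of 45.7 CPM.

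Ier2 (ENSMUSG00000053560, chr8:84661331-84662852, minus strand) encodes a small nuclear protein of the early response. FS1 had 25.0, 24.7 and 32.0 CPM, FS2 17.7, 19.4 and 19.3 CPM, AF 32.6, 35.8 and 43.3 CPM, and AFX 25.7, 33.9 and 38.8 CPM. Embryos had 57.6, 84.1 and 70.1 CPM at E5.0, 70.7, 78.5 and 67.6 CPM at E5.5, and 70.7, 78.2 and 74.1 CPM at E6.0. It was the only member whose 12 cultured and 9 epiblast samples did not overlap. Cultured samples were lower by -1.25 ± 0.11 (adjusted p = 1.49e-09, edgeR), and between -1.31 and -1.20 when any 1 sample was left out. The 3 stages overlapped, with log2 differences of 0.02 to 0.06. FS cells were lower than AF by -0.70 ± 0.19 (adjusted p = 0.0167), a call lost without AF passage 16 or with FS1 alone (adjusted p up to 0.127). FS2 lay below FS1 in every sample, with a difference of -0.56 ± 0.17 (adjusted p = 0.0968) that was called when only those groups were fitted. The difference of FS from AFX, -0.52 (adjusted p = 0.114), was called without FS1 passage 18, with FS2 alone and with the FS lines as separate groups.

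Ier3 (ENSMUSG00000003541, chr17:35821684-35822923, plus strand) encodes a protein linked to ERK signalling and cell survival. FS1 had 1.19, 3.55 and 1.14 CPM, FS2 2.49, 2.53 and 3.25 CPM, AF 2.47, 6.16 and 1.58 CPM, and AFX 5.51, 2.38 and 1.58 CPM. These 4 groups overlapped. Embryos had 7.09, 0.79 and 1.44 CPM at E5.0, 1.58, 0.57 and 2.52 CPM at E5.5, and 0.13, 0 and 0.21 CPM at E6.0, where at most 2 counts were found per sample. Against the floor of 3 counts per library, Ier3 was at least 9.56-fold lower at E6.0 than at E5.0 and at least 4.80-fold lower than at E5.5. The first passed the test (adjusted p = 0.0119, edgeR) and the second did not (adjusted p = 0.0988), although DESeq2 and the fit without the filter called it. The E5.0 call was lost without E5.0 embryo 1 or E6.0 embryo 2 (adjusted p up to 0.0829), and without E5.0 embryo 1 the bound was at least 3.43-fold. Without E5.5 embryo 3 the bound against E5.5 was at least 3.32-fold. Cultured samples were called higher than epiblasts (adjusted p = 0.00241). The fitted difference takes in the E6.0 embryos at 0 to 2 counts, the ratio of mean CPM was 1.77, and the E5.0 mean of 3.10 CPM was above the cultured mean of 2.82 CPM with all 3 embryos and below it, at 1.11 CPM, without embryo 1.

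**Figure D2:**
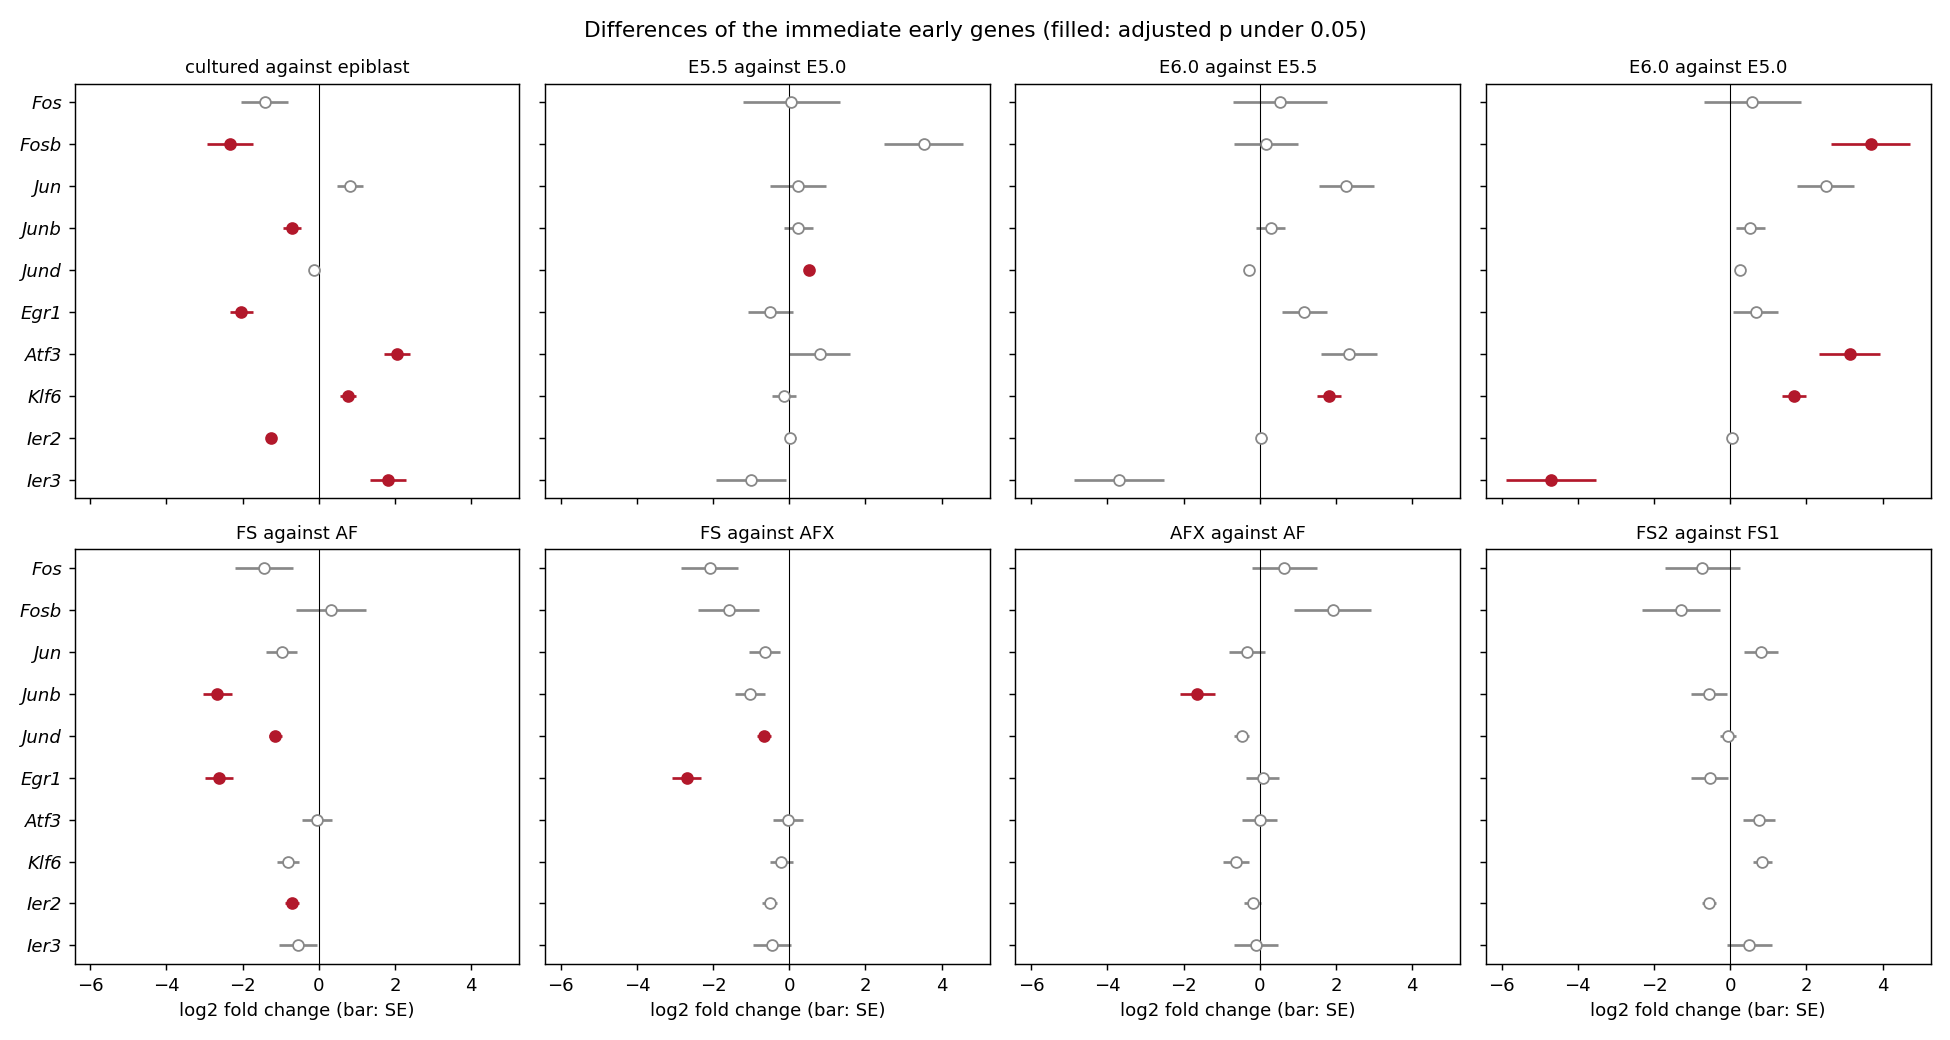
Log2 fold change of each gene in the 8 comparisons (horizontal axis, bar for the SE), with filled red points for an adjusted p under 0.05. Points left of 0 are lower in the group named first. The fitted value drawn for Ier3 at E6.0 rests on at most 2 counts per embryo and is no measured fold.

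The plot of log2 fold changes gathers these results by comparison. In FS against AF, 4 members were lower (Junb, Jund, Egr1 and Ier2) and 0 higher, where 10.6% of the 16052 genes tested were lower and 8.86% higher. The members' median log2 fold change was -0.90, against 0.02 for all genes. The members without a call in it stood at 0.32 (Fosb), -1.44 (Fos), -0.98 (Jun), -0.82 (Klf6), -0.55 (Ier3) and -0.04 (Atf3). In FS against AFX, 2 were lower (Jund and Egr1) and 0 higher, beside 4.92% and 3.78% of all genes. The others stood at -2.09 (Fos), -1.59 (Fosb), -1.03 (Junb), -0.65 (Jun), -0.52 (Ier2), -0.44 (Ier3), -0.21 (Klf6) and -0.04 (Atf3). In AFX against AF, 1 was lower (Junb) and 0 higher, beside 4.42% and 4.3%, and the others ran from -0.61 (Klf6) to 1.91 (Fosb). FS2 against FS1 gave 0 calls by edgeR in either direction, beside 2.65% of genes higher and 1.2% lower. Ier2 and Klf6 had an unadjusted p under 0.05 there, and DESeq2 called 1 member. The log2 fold changes ran from -1.29 (Fosb) to 0.84 (Klf6).

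Between stages, 1 member rose from E5.0 to E5.5 (Jund) and 0 fell, beside 3.07% and 3.75% of the 14228 genes tested, and the others ran from -1.01 (Ier3) to 3.53 (Fosb). From E5.5 to E6.0, 1 rose (Klf6) and 0 fell, beside 1.89% and 2.54%, and the others apart from Ier3 ran from -0.27 (Jund) to 2.34 (Atf3). From E5.0 to E6.0, 3 rose (Fosb, Atf3 and Klf6) and 1 fell (Ier3), beside 10.2% and 11.6%, and the others ran from 0.06 (Ier2) to 2.503 (Jun). The members' median over that span was 0.63, against -0.02 for all genes. In cultured against epiblast samples, 3 members were higher (Atf3, Ier3 and Klf6) and 4 lower (Fosb, Junb, Egr1 and Ier2), beside 33.9% and 27.9% of 16614 genes. The count of 7 among 10 is thus read against a background where most genes were called. Jun (0.81), Jund (-0.11) and Fos (-1.42) had no call. Line, medium, cell number and handling differ between cultured samples and epiblasts and cannot be told apart.

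In the related lists, the genes named here were called between FS cells and AF, where 10.6% of all genes were lower and 8.86% higher. Summed marker levels moved the same way, and their part was not tested. They were those of the fibroblast list (236.4 to 309.7 CPM in AF, 16.8 to 46.42 CPM in FS cells), the visceral endoderm list (64.59 to 97.01 and 7.95 to 14.66 CPM) and the extraembryonic ectoderm list (81.46 to 169.6 and 33.94 to 56.66 CPM). Of 8 tested EGR, KLF and NR4A relatives 5 were lower and 0 higher, with Klf2 (0.41 CPM in FS cells and 3.98 CPM in AF), Egr3 (0.17 and 1.42 CPM) and Egr2 (0.17 and 0.98 CPM) among them. Most FS samples had at most 3 counts of Egr3 or Egr2, as did every FS2 sample of Klf2, so no fold is given for these. Of 6 AP-1 relatives 3 were lower, namely Fosl2 (-2.07), Maff (-1.28) and Mafk (-1.11). Of 13 feedback genes, which shut the response down, 5 were lower, among them the sprouty gene Spry4 (-2.40), Dusp4 (-2.23) and Dusp5 (-1.93), both ERK phosphatases. Mean Dusp4 was 17.2 CPM in FS cells and 80.0 CPM in AF. Of 20 other fast-induced genes 11 were lower, led by Sgk1 (-2.85), Arc (-2.35) and Pim1 (-2.24), and 0 were higher in any of these lists. Of 20 upstream kinases and factors 4 were lower, Elk3 (-0.91), Rps6ka3 (-0.77) and Mapk3 (-0.46) among them. Of 12 heat shock genes 5 were lower, led by Hspb1, Hspa1b and Hspa1a (-2.25), the last pair near-identical copies that reads may not separate. The FS lines differed in Hspb1 and Hspa1b, with mean Hspb1 at 0.26 CPM in FS1, 7.91 CPM in FS2 and 37.6 CPM in AF, and mean Hspa1b at 0.42, 2.88 and 9.61 CPM. Both were too low in FS1 for a fold to be given. Of 8 ATF4 and CHOP targets 1 was higher, Sesn2 (0.66). Without AF passage 15 the EGR, KLF and NR4A count was 3, without FS1 passage 18 the ATF4 count was 2, and the heat shock count moved by over 1.5 times without AF passage 14, 15 or 16, down to 0 without passage 16.

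Against AFX, 4.92% of all genes were lower and 3.78% higher. Egr3 (0.17 CPM in FS cells and 1.60 CPM in AFX) and Nr4a1 (-1.91) were lower among 8 EGR, KLF and NR4A relatives, Maff (-0.93) among 6 AP-1 relatives, and Arc (-2.03) among 20 other fast-induced genes. Of 13 feedback genes 4 were lower, including Dusp4 (-1.53), Spry4 (-1.40) and Ier5 (-1.11). Mkl1 (-0.70) and Rps6ka1 (-0.52) were lower and Crem (0.87) higher among 20 upstream genes. Of 12 heat shock genes Hspa1b, Hspa1a (-2.59) and Hsf1 (-0.73) were lower, and 0 of 8 ATF4 targets passed. The AP-1 count came to 0 in 7 of the 9 fits that left out 1 sample (FS1 passage 10 or 18, FS2 passage 13 or 16, or any AFX passage) and was 2 without FS2 passage 12, and the EGR, KLF and NR4A count was 1 without AFX passage 16. The count of other fast-induced genes was above 1, at up to 3, without FS1 passage 11 or 18, FS2 passage 12 or AFX passage 14, and the ATF4 count was 1 without AFX passage 14. In AFX against AF, 4.42% of all genes were lower and 4.3% higher. Mafk (-1.14) was lower among 6 AP-1 relatives. Zfp36 (-1.43) was lower and Ier5 (0.89) higher among 13 feedback genes. Of 20 other fast-induced genes 4 were lower, led by Ctgf (-2.20), Bhlhe40 (-2.09) and Pim1 (-1.92). Elk3 (-1.39) and Crem (-0.94) were lower and Mkl1 (0.55) higher among 20 upstream genes. Sesn2 (0.73) was higher among 8 ATF4 targets. None of 8 EGR, KLF and NR4A relatives or 12 heat shock genes passed. In FS2 against FS1, 2.65% of all genes were higher and 1.2% lower. Hspb1 and Hspa1b (at mean levels of 0.26 and 0.42 CPM in FS1, too low for a fold) were higher among 12 heat shock genes. Arc (1.57) was higher among 20 other fast-induced genes, Dusp6 (0.59) among 13 feedback genes and Srf (0.45) among 20 upstream genes. In this comparison 0 list genes were lower. In AFX against AF the AP-1 count came to 0 without AF passage 15 or AFX passage 14 or 15, and the ATF4 count to 2 without AF passage 14 or AFX passage 16. The feedback count of 2 was 0 to 1 without any 1 sample, the count of 4 other fast-induced genes moved by over 1.5 times, down to 0, without any 1 sample but AF passage 14, and the upstream count of 3 did so without any but AF passage 16. In FS2 against FS1 the feedback count of 1 came to 0 without FS1 passage 11 or 18 or FS2 passage 12 or 13, and the upstream count of 1 without any 1 sample but FS2 passage 13. The count of other fast-induced genes was 2 without FS2 passage 13, and the heat shock count ran from 1 to 4, moving without any 1 sample but FS2 passage 16.

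From E5.0 to E6.0, 10.2% of all genes rose and 11.6% fell. Of 9 EGR, KLF and NR4A relatives 1 rose and 0 fell, a share near that of all genes. Visceral endoderm markers were at 319.6 to 919.5 CPM at E5.0 and 27.64 to 34.97 CPM at E6.0, and their part and that of extraembryonic ectoderm markers in the stage differences of the list genes was not tested. Egr4, a neuronal EGR family member, had no count in any E5.0 embryo and 5.33 ± 0.86 CPM (SD, n = 3) at E6.0, which is at least 12.1-fold higher. Ddit3, which encodes CHOP, rose from E5.5 to E6.0 by 3.66 ± 0.61 and from E5.0 to E6.0 by 2.05 ± 0.56. Chac1, an ATF4 target, was at 0.23 CPM at E5.0 and 30.8 CPM at E6.0. Of 8 ATF4 and CHOP targets 4 rose over the whole span, Asns (1.37) among them, and 0 fell. Heat shock genes went the other way: 6 of 12 fell, led by Hspb1 (-4.23), Hspa1a (-4.21) and Hspa1b (-3.96), and Hsp90ab1 (0.45) and Hspa8 (0.28) rose. Of 21 other fast-induced genes 4 fell, among them Plk3 (-2.36), Csrnp1 (-1.60) and Errfi1 (-0.93), and Cyr61 (0.94) and Ctgf (0.89) rose. Of 14 feedback genes Ier5l (-1.14) and Ier5 (-0.64) fell and Zfp36l1 (0.89) rose. Of 20 upstream genes Mkl1 (0.67), Creb1 (0.55) and Srf (0.45) rose and Braf (-0.91), Rps6ka1 (-0.87) and Rps6ka2 (-0.70) fell. None of 6 AP-1 relatives passed. The count of other fast-induced genes was 3 without E5.0 embryo 1 or E6.0 embryo 1, that of heat shock genes 5 without E6.0 embryo 2 or 3, and that of ATF4 and CHOP targets 2 without E5.0 embryo 2. The EGR, KLF and NR4A count was 2 without E5.0 embryo 1 or 2, and the AP-1 count 1 without E5.0 embryo 2 or 4.

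Of the list genes, Egr4, Asns (1.57) and Mkl1 (0.93) were higher at E5.5 than at E5.0 (3.07% of all genes). Hspb1 (-1.80), Hsph1 (-0.82), Plk3 (-1.38), Gadd45a (-1.18) and Rps6ka1 (-0.52) were lower (3.75% of all genes). From E5.5 to E6.0, 1.89% of all genes rose and 2.54% fell. Ctgf (1.76) rose among 21 other fast-induced genes. Btg2 (1.79) and Zfp36l1 (1.02) rose and Ier5l (-1.21) and Spry4 (-0.96) fell among 14 feedback genes. Hspb1 (-2.43) fell among 12 heat shock genes and Rps6ka2 (-0.53) among 20 upstream genes. These counts were small and moved with single embryos. For E5.5 against E5.0 the EGR count of 1 came to 0 without E5.0 embryo 4 or E5.5 embryo 1 or 3. The count of 2 other fast-induced genes ran from 0 to 4 and moved without any 1 embryo. The upstream count of 2 ran from 0 to 3 (moving without E5.0 embryo 4 or any E5.5 embryo), the heat shock count of 2 from 1 to 4 (without embryo 1 or 2 of either stage), and the ATF4 count of 1 from 0 to 3 (without any but E5.5 embryo 2). For E6.0 against E5.5 the feedback count of 4 moved without E5.5 embryo 2 or E6.0 embryo 1, to 2 and 1. The upstream count of 1 came to 0 without any 1 embryo but E5.5 embryo 2. The ATF4 count was 3 without E5.5 embryo 1, and the counts of other fast-induced and heat shock genes were 2 without E5.5 embryo 3 and E6.0 embryo 1.

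In cultured against epiblast samples, list genes were called in both directions, beside 33.9% of all genes higher and 27.9% lower. Among 7 AP-1 relatives Jdp2 (3.85) and Fosl2 (1.36) were higher and Fosl1 and Mafk (-0.94) lower. Fosl1 had at most 3 counts in every FS1 sample and is given no fold. Its means were 0.32 CPM in FS2, 0.78 CPM in AF and 0.34 CPM in AFX, against 2.07, 0.86 and 2.16 CPM at E5.0, E5.5 and E6.0. Jdp2, which encodes an AP-1 repressor, had 10.3 CPM in cultured samples and 0.80 CPM in epiblasts. Egr2 and Klf4 (-1.15) were lower and Klf10 (0.91) and Nr4a1 (0.68) higher among 9 EGR, KLF and NR4A relatives. Egr2 had at most 3 counts in every FS2 sample and is given no fold. Its means were 0.31 CPM in FS1, 0.98 CPM in AF and 0.56 CPM in AFX, against 3.39, 2.54 and 9.68 CPM at E5.0, E5.5 and E6.0. Of 14 feedback genes 9 were lower, led by Ier5l (-1.75), Dusp4 (-1.62) and Zfp36l2 (-1.55), while Btg2 (2.70) and Zfp36l1 (0.29) were higher. Of 22 other fast-induced genes 10 were lower, led by Pim1 (-2.87), Sgk1 and Gadd45g (-2.04), and 8 were higher, Gadd45b (2.07) and Plk2 (1.87) among them. Npas4 was called higher in the fit but had a mean of 0.48 CPM in cultured samples and 0.57 CPM in epiblasts, with at most 3 counts in every E5.0 and E5.5 embryo, and is given no fold. Of 20 upstream genes 10 were lower, led by Rps6ka2 (-1.15), Rps6ka1 (-1.03) and Mapk3 (-0.73), and 5 higher, led by Elk3 (1.70), Rps6ka3 (1.10) and Crem (0.69). Of 12 heat shock genes 8 were lower and 0 higher, led by Hsph1 (-0.96), Hspa8 (-0.74) and Hspe1 (-0.70). Of 8 ATF4 and CHOP targets 7 were higher, led by Ddit4 (2.83), Chac1 and Ddit3 (1.67), and Ppp1r15a (-1.04) was lower. Chac1 is given no fold, because its mean at E5.0 lay under the floor of 3 counts.

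**Figure D3:**
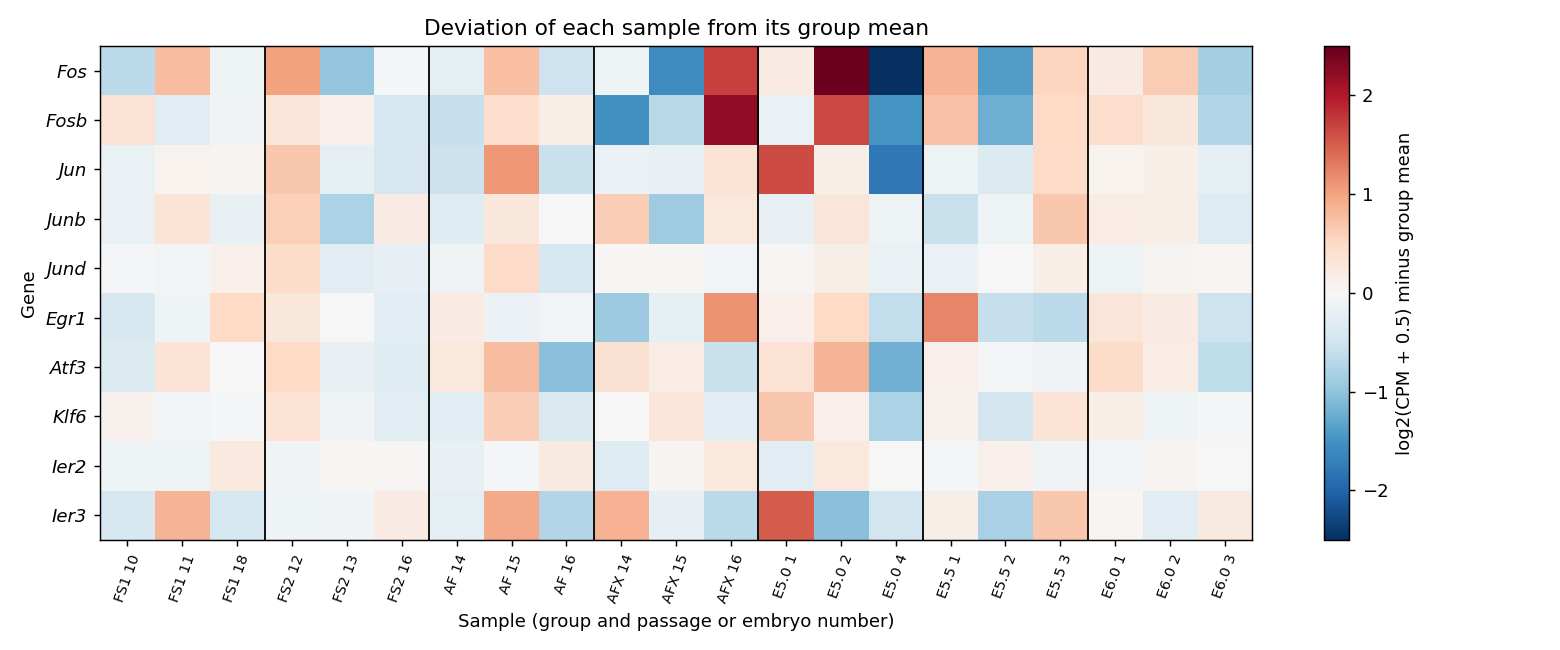
Deviation of each sample from its group mean on the log2(CPM + 0.5) scale, with genes as rows and samples as columns, where red is above and blue below the group mean and colours stop at 2.5. AF 15, FS2 12 and E5.0 embryo 2 are red for most genes, and E5.0 embryo 4 is blue for most.

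Within groups, single samples stood high or low for many members at once, as the map of deviations shows. AF passage 15 was the highest AF sample for 8 of 10 members, and FS2 passage 12 was the highest FS2 sample for 8. AFX passage 16 was highest for 5 (Fos, Fosb, Jun, Egr1 and Ier2) and lowest for 4 (Jund, Atf3, Ier3 and Klf6). E5.0 embryo 2 was highest for 7, and embryo 4 was lowest for 7 and highest for 0. Visceral endoderm markers summed to 919.5 CPM in embryo 2 and 319.6 CPM in embryo 4, and their part in this spread was not tested. The coefficient of variation (CV, SD over mean) of Fos was 134.2% at E5.0 and 113.3% in AFX, and that of Fosb was 148.1% in AFX. The median CV of all genes with a mean of at least 5 CPM was 20.18% at E5.0 and 12.82% in AFX. Fosb in AFX, with a mean of 3.26 CPM, lay under that minimum, and Fos there, with 5.10 CPM, lay just above it. At E6.0 the CV was 5.06% for Ier2 and 7.66% for Jund, where the median of all genes was 10.71%.

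Over the 7 group means of log2 CPM, the 5 genes outside the 10 whose profile was most like that of Fos were Id3 (Pearson r 0.98), Parvb (0.98), Met (0.98), Trmt61a (0.97) and Timm10 (0.95), out of 4492 candidates. Among the members, r with Fos was 0.86 for Egr1, 0.81 for Fosb and Ier2, 0.79 for Junb and 0.78 for Jund. It was 0.27 for Jun, 0.09 for Klf6, -0.16 for Atf3 and -0.70 for Ier3. These 7 points share libraries and scaling and describe likeness only.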

How the data were processed

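Raw counts per gene were deposited by the authors in 1 table with 1 column per sample, as whole numbers without normalization. Reads were trimmed with Trim Galore, aligned with TopHat2 2.1.0 to mm10 and counted with featureCounts 1.5.0, per the submitters' processing notes. The annotation, strand setting and treatment of reads with several matches are not given in the sources used here, so overlapping, antisense and near-identical genes may share reads. Positions and exon lengths came from GENCODE M21 (GRCm38).

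The tests used edgeR 4.0.16 under R 4.3.3 (filterByExpr, TMM, robust quasi-likelihood F-tests, two-sided, Benjamini-Hochberg over all genes tested, threshold 0.05). Cultured comparisons used the 12 cultured samples, stage comparisons the 9 epiblasts, and cultured against epiblast all 21, as the difference of unweighted group means. Scripts were tested on simulated data. Floors of 3 counts cover counting error only. The rule for named genes took all 10 members in every comparison, up to 3 rising and 3 falling called genes per list and comparison, and the 5 genes most like Fos. The members and lists were chosen with earlier results of these data known. Alternatives were DESeq2 1.42.0, its size factors, other filters, single FS lines, a replicate block, removal of ribosomal RNA loci (the 3 abundant loci chosen after seeing the data) and leaving out each sample. No 2 libraries of the same group agreed within sampling noise.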

Additional observations from a re-analysis of the deposited data

Results flagged for a closer look

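Jun in FS2 passage 12 was at 53.9 CPM, apart from the other 5 FS samples. Its gap to the nearest sample was 0.71 of the whole range of the 6 FS samples. The 10 genes were each examined over these 6 samples and 1 stood out, where chance flags about 1 in 20 groups drawn from a single population. These 6 samples are 2 lines whose Jun levels did not overlap. FS2 passage 12 was also the highest FS2 sample for 8 of the 10 genes, and the share of all genes was not counted.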

How the results depend on the processing

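The 20 calls on the 10 genes gave 405 values over the alternative fits, counted per gene and setting. Of these 374 kept direction and call, 31 kept the direction and lost the call, and 0 changed direction. Each call in cultured against epiblast had 21 fits that left out 1 sample, and so weighed more in this tally than the others. The losses fell on Ier2 in FS against AF, Jund in FS against AFX, Junb in AFX against AF and Jund in E5.5 against E5.0. They also fell on Fosb, Atf3 and Ier3 in E6.0 against E5.0, and on Fosb in cultured against epiblast. Differences that changed sign in some fit were all without a call; the cause was not tested. No pair of groups had same-numbered samples that all deviated together (correlations of -0.125, -0.093 and 0.196 between AFX and AF). Samples with unlike numbers reached 0.304 there. With group means over 3 samples, this check cannot decide whether the numbers pair the samples. With a replicate block, AFX against AF gave 907 genes and 0 members, E5.5 against E5.0 78 genes and 0 members, E6.0 against E5.5 1607 genes and 3 members (Klf6, Jun and Atf3), and E6.0 against E5.0 1504 genes, with Jun called. In that replicate block, AFX against AF turned to -0.17 for Egr1 and 0.12 for Atf3, and E5.5 against E5.0 to -0.72 for Fos, -0.39 for Jun and -0.28 for Junb.

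DESeq2 gave 1099 genes and 1 member in FS2 against FS1, 1590 genes and 2 members in E5.5 against E5.0 (Fos at -0.00929), and 1075 genes and 4 members in E6.0 against E5.5. Without the filter the counts were 1298 genes and 2 members in FS2 against FS1, 1659 genes in E5.5 against E5.0, and 1107 genes and 3 members in E6.0 against E5.5. Fitting only the groups compared gave 1045 genes and 2 members, 453 genes and 0 members, and 1445 genes and 3 members in the same order. With FS1 alone as FS, 1 member passed against AFX. With FS2 alone, Fosb was at -0.46 and Atf3 at 0.27 against AF, and Atf3 at 0.28 and Klf6 at 0.14 against AFX.

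Leaving out 1 sample at a time gave 820 to 1485 genes and 1 to 3 members in FS against AFX, 732 to 1129 genes and 0 to 1 members in AFX against AF, 316 to 478 genes in FS2 against FS1, 371 to 1260 genes and 0 to 2 members in E5.5 against E5.0, 238 to 372 genes and 1 to 2 members in E6.0 against E5.5, and 1905 to 3362 genes and 2 to 5 members in E6.0 against E5.0. The log2 fold change then ran across 0 for uncalled differences. In FS against AF it ran from -0.44 to 0.42 for Atf3, -0.015 to 0.68 for Fosb and -0.91 to 0.22 for Ier3. In FS against AFX it ran from -0.29 to 0.19 for Atf3, -0.77 to 0.27 for Ier3 and -2.15 to 1.28 for Fosb. In AFX against AF it ran from -0.40 to 0.46 for Atf3, -0.63 to 0.45 for Jun, -0.74 to 0.43 for Egr1, -0.82 to 0.67 for Ier3, -0.80 to 1.21 for Fos and -0.97 to 2.46 for Fosb. In FS2 against FS1 it ran from -0.32 to 0.079 for Jund. In E5.5 against E5.0 it ran from -0.54 to 2.08 for Fos, -0.096 to 0.17 for Ier2, -1.53 to 0.46 for Ier3, -0.46 to 0.28 for Klf6, -0.29 to 1.51 for Jun and -0.20 to 0.50 for Junb. It ran from -0.24 to 0.52 for Fosb in E6.0 against E5.5, and in E6.0 against E5.0 from -0.047 to 0.22 for Ier2 and -0.0016 to 2.62 for Fos. Genes with few counts, such as Ier3 at E6.0, are limited by depth.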
